A study of Mus musculus with 12 samples.

Results

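The 9 genes described here encode the B cell antigen receptor's signaling chains and the surface, kinase, adaptor and nuclear proteins by which mouse B cells are recognized: Cd79a, Cd79b, Ms4a1, Cr2, Cd22, Fcer2a, Blk, Bank1 and Pax5. They were listed by name for their known roles, with earlier results of these data known. They make up 9 of the 49315 genes in the count table. All 9 passed the filter on low counts that left 18702 genes for testing. RNA of epididymal white adipose tissue (eWAT) was sequenced in 12 libraries, each taken as 1 male mouse. The mice had received a high-fat diet (60% fat) for 12 weeks. In flox mice, both alleles of the locus coding for miR-181a-2 and miR-181b-2 were flanked by loxP sites (Mir181a2b2 flox/flox) without being deleted. The locus was missing from every cell of KO mice (Mir181a2b2-/-). Within each genotype, 3 mice received vehicle and 3 received methotrexate (MTX, an antifolate given in inflammatory arthritis) at 1 mg/kg by weekly intraperitoneal injection, so that the diet was common to the 4 groups and the age at tissue collection was not given. The comparisons ask whether these genes differed between the genotypes under either treatment and whether MTX changed them in either genotype.

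A B cell sees antigen through a membrane immunoglobulin that has almost no cytoplasmic part, and the CD79A and CD79B proteins pair beside it to carry the signal inward through Src family and Syk kinases. Coreceptors such as CD21 lower the threshold of that signal, whereas CD22 recruits phosphatases that dampen it. In visceral fat, B cells are found scattered in the stroma and in small lymphoid clusters, together with T cells and macrophages, and they increase in number during diet-induced obesity. In bulk RNA of a tissue, fewer cells of a type and less RNA per cell cannot be told apart.

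The promoter windows of members that turn up again below are printed first. RefSeq (GRCm38.p6) gave a window from 250 bases before to 50 bases after the start site for 6 of the 9 members, with 8 windows in all because Fcer2a has 3. Motifs of 4 kinds of factor known to act in B cells were searched on both strands, none of whose matches overlapped another: the octamer ATGCAAAT, the EBF core CCCNNGGG, the PU.1 core GAGGAA and the E2A E-box CAGGTG. Capitals mark the matches, which read as the reverse complement where they lie on the other strand.
Cd79a, chr7:24897247-24897546, plus strand: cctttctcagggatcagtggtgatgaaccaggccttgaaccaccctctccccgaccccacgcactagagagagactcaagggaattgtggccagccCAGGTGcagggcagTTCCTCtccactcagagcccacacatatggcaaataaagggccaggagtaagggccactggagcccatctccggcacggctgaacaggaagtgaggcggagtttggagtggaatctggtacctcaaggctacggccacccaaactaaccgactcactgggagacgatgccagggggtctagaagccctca
Cr2, chr1:195176670-195176969, minus strand: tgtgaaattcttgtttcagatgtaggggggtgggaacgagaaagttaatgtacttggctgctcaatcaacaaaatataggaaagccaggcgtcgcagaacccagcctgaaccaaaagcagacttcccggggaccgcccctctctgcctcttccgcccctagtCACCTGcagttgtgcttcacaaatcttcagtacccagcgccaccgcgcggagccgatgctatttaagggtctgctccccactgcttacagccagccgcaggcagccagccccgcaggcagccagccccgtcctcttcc
Cd22, chr7:30878979-30879278, minus strand: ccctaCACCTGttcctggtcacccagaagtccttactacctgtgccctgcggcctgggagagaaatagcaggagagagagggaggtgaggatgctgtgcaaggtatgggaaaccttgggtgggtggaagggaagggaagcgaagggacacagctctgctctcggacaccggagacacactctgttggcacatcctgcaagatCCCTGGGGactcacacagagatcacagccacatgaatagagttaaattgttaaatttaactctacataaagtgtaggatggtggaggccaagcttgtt
Bank1, chr3:136326017-136326316, minus strand: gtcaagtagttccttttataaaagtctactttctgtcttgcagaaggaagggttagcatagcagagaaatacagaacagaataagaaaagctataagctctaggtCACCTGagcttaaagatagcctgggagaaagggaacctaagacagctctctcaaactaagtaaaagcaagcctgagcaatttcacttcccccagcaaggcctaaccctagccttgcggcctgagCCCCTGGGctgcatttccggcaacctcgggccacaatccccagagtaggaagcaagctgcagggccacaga

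The Cd79a window is shown for the member with the highest level per length, the Cr2 window for the member with the widest range between libraries, and the Cd22 and Bank1 windows for the member least like the others and for the one with the narrowest range. The E-box was found in 5 of the 8 windows, from 5 of the 6 members (Cd79a, Cr2, Cd22, Bank1 and 1 window of Fcer2a). Of the 32851 RefSeq promoter windows of the mouse, 20.2% held it. The EBF core was found in the windows of Cd22 and Bank1 (13.7% of all windows), and the PU.1 core in that of Cd79a only among the 6 members (28.3% of all windows). No member's window held the octamer (1.74% of all windows), and that of Pax5 held none of the 4 motifs. A match is a run of letters, and no binding was measured here.

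Depth was similar between libraries, from 19495310 to 23976469 counts. CPM, the unit of level used throughout, are counts scaled by library size and TMM factors. By library size alone, without TMM factors, 3 counts, the most that a count of 0 allows, amounted to 0.125 to 0.154 CPM. Each library is given by its group and its replicate number in the labels. The deleted precursors were almost absent from these libraries (Mir181a-2 had 2 counts, both of them in replicate 4 of flox MTX, and Mir181b-2 had 0 throughout), so they gave no check of the genotype labels. Adipocyte markers were high in every library, with sums over 10 genes of 9646 to 47990 CPM and no marker at 0. The 3 flox vehicle libraries stood apart by RNA of other tissues: 12 markers of the epididymis summed to 1412 to 11050 CPM there against 1.27 to 466 CPM in the other 9 libraries, and 10 markers of testis germ cells to 205 to 598 CPM against 1.19 to 13.6 CPM. Counts of members called that use the flox vehicle group are therefore also given without each of its libraries.

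Cd79a (chromosome 7, 24897381 to 24902197) and Cd79b (chromosome 11, 106311341 to 106314762) code for the chains that carry the receptor's signal. Replicates 1, 3 and 4 of flox vehicle gave Cd79a levels of 7.20, 2.95 and 5.63 CPM, and replicates 1, 2 and 3 of KO vehicle gave 2.67, 11.4 and 4.87 CPM. It stood at 5.95, 68.0 and 23.6 CPM in flox MTX replicates 1, 2 and 4 and at 4.13, 54.3 and 15.7 CPM in KO MTX replicates 2, 3 and 4. Within each MTX group 2 libraries lay above all vehicle libraries and 1 lay among them. Cd79b gave 4.86, 1.77 and 5.77 CPM in flox vehicle, 4.94, 10.2 and 4.92 CPM in KO vehicle, 6.80, 58.7 and 21.5 CPM in flox MTX and 7.18, 48.6 and 13.8 CPM in KO MTX, in the same order of replicates. Here all 3 flox MTX libraries lay above all 3 flox vehicle libraries, whereas the KO groups overlapped.

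Of the surface proteins, Ms4a1 (chromosome 19, 11249675 to 11266241) codes for CD20, the membrane protein against which B cell-depleting antibodies are directed. Its levels were 6.42, 1.85 and 5.82 CPM in flox vehicle, 1.61, 6.10 and 2.48 CPM in KO vehicle, 2.69, 47.5 and 22.8 CPM in flox MTX and 1.70, 36.7 and 13.1 CPM in KO MTX. The lowest MTX library of each genotype again lay among the vehicle libraries. Cr2 (chromosome 1, 195136811 to 195176716) codes for CD21, the complement receptor of the coreceptor complex, and was the member with the lowest counts, down to 6 counts in flox vehicle replicate 3. It stood at 1.35, 0.236 and 1.11 CPM in flox vehicle, 1.16, 1.61 and 0.656 CPM in KO vehicle, 0.756, 20.3 and 12.9 CPM in flox MTX and 1.57, 16.6 and 6.56 CPM in KO MTX. The highest Cr2 value was 85.9 times the lowest, the widest range of the 9 members.

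Fcer2a (chromosome 8, 3681737 to 3694175) codes for CD23, the low-affinity IgE receptor of mature follicular B cells. Its levels were 2.60, 0.669 and 0.693 CPM in flox vehicle, 0.957, 4.79 and 1.27 CPM in KO vehicle, 1.18, 29.3 and 13.8 CPM in flox MTX and 1.39, 27.8 and 6.91 CPM in KO MTX. Flox MTX replicate 1 and KO MTX replicate 2 lay within the range of the vehicle libraries of their genotype. Cd22 (chromosome 7, 30865402 to 30880342) codes for the inhibitory sialic acid-binding lectin of B cells. It stood at 8.11, 2.20 and 4.57 CPM in flox vehicle and at 9.22, 16.0 and 14.7 CPM in KO vehicle. After MTX it stood at 4.58, 65.3 and 20.8 CPM in flox mice and at 14.8, 64.4 and 21.9 CPM in KO mice. Cd22 was the 1 member whose KO vehicle libraries all lay above the flox vehicle libraries.

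Inside the cell, Blk (chromosome 14, 63372836 to 63417037) is a Src family kinase of the receptor and Bank1 (chromosome 3, 136053363 to 136326066) an adaptor that binds receptor-associated kinases. Blk stood at 2.08, 0.669 and 1.57 CPM in flox vehicle, 1.11, 2.54 and 1.41 CPM in KO vehicle, 2.08, 14.3 and 5.63 CPM in flox MTX and 1.78, 12.4 and 4.94 CPM in KO MTX. Bank1 stood at 3.86, 2.20 and 4.62 CPM, 2.37, 5.38 and 2.48 CPM, 2.79, 29.4 and 11.8 CPM, and 3.001, 23.1 and 6.99 CPM in the same groups. Pax5 (chromosome 4, 44524757 to 44710487) codes for the transcription factor that commits cells to the B lineage and holds them there. Its levels were 5.29, 2.05 and 4.71 CPM in flox vehicle, 2.37, 6.48 and 2.999 CPM in KO vehicle, 2.55, 43.8 and 17.1 CPM in flox MTX and 2.61, 35.5 and 9.70 CPM in KO MTX. For Blk, Bank1 and Pax5, too, both groups of each MTX comparison overlapped, through flox MTX replicate 1 and KO MTX replicate 2. Exons of Pax5 share 636 and 125 bases with 2 genes on the other strand and those of Cd22 share 479 bases with another, and since the strand setting of the counting was not given, reads from these stretches cannot be assigned to a strand.

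**Figure D1:**
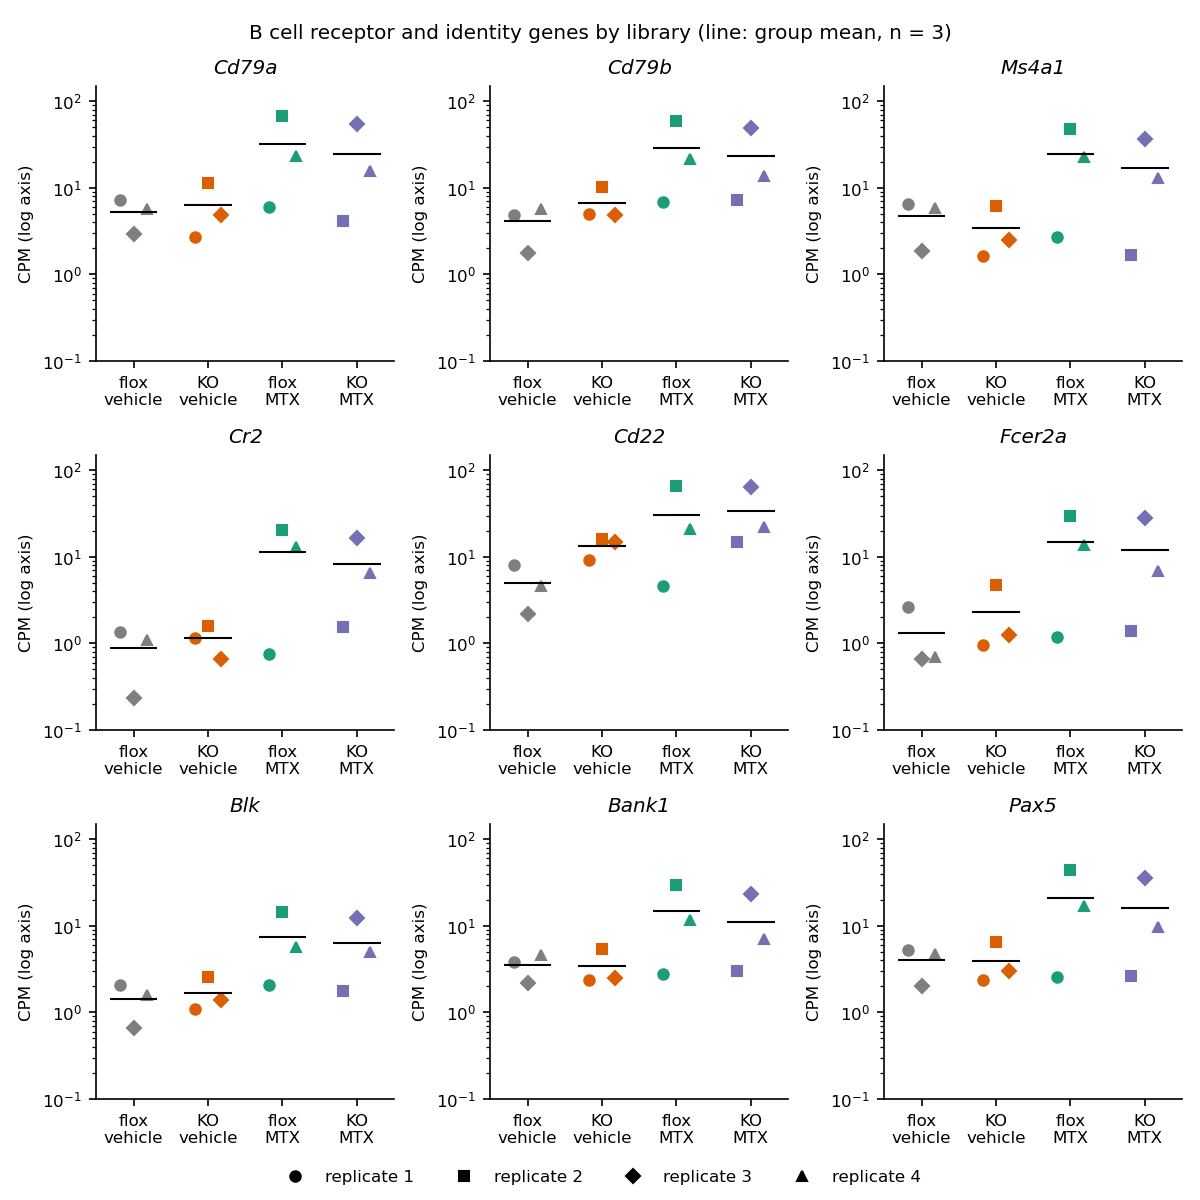
Level of each of the 9 genes in CPM on a log axis, with 1 point per library, the shape of the point giving the replicate number and the line the mean of 3 libraries. Flox MTX replicate 2 (square) and KO MTX replicate 3 (diamond) were the highest and second highest library in every panel, and the circle of flox MTX and the square of KO MTX lay near the vehicle libraries.

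The 9 genes thus ordered the libraries alike. Flox MTX replicate 2 was highest and KO MTX replicate 3 second for all 9, followed by flox MTX replicate 4 and KO MTX replicate 4, in that order for 8 genes and reversed for Cd22. Summed over the 9 genes, these libraries held 376.5, 319, 150 and 99.6 CPM, whereas flox MTX replicate 1 held 29.4 CPM and KO MTX replicate 2 held 38.2 CPM. The vehicle libraries held 14.6 to 41.8 CPM in flox mice and 26.4 to 64.5 CPM in KO mice, so the remaining MTX library of each genotype was no higher than vehicle. The correlation of each gene with the standardized mean of all 9, itself included, over the 12 libraries (Pearson's r of log2 CPM, a description of libraries that share depth and cell makeup) was 0.961 to 0.989 for 8 genes and 0.902 for Cd22. The least similar pair was Ms4a1 and Cd22, at 0.770.

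Levels of different genes can be compared per kilobase of exon, and on this scale (CPM per kb, mean of 12 libraries) the receptor chains Cd79a at 11.8 and Cd79b at 11.01 were highest. Cd22 at 4.08, Fcer2a at 2.46, Ms4a1 at 2.00, Blk at 1.56, Pax5 at 1.27, Bank1 at 1.09 and Cr2 at 0.665 followed. Cd79b exceeded Cd22 and Blk exceeded Pax5 in 12 of 12 libraries. By contrast, Cd79a exceeded Cd79b in 7 libraries, Fcer2a exceeded Ms4a1 and Ms4a1 exceeded Blk in 8, and Pax5 exceeded Bank1 in 7, so the order of these neighbors changed from library to library.

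MTX against vehicle in flox mice was the 1 comparison of the study's design in which members were called. A call required a fold change of 1.5 or more and, after Benjamini-Hochberg adjustment over all genes, p under 0.1 in edgeR's quasi-likelihood test. Here 6 of the 9 members were called higher and none lower, where 8.09% of all genes tested were called higher. Since the members and the lists below were chosen with earlier results of these data known, such shares are given as description, without a test. Cr2 rose by 3.66 on the log2 scale (SE 1.12, adjusted p = 0.0424), a 12.6-fold difference with a 95% interval of 2.31 to 69.2. Fcer2a (log2 fold change 3.48, SE 1.25, adjusted p = 0.0746), Cd79b (2.81, SE 0.86, adjusted p = 0.0431) and Cd79a (2.63, SE 0.99, adjusted p = 0.0859) rose as well, as did Cd22 (2.61, SE 0.86, adjusted p = 0.0558) and Blk (2.35, SE 0.81, adjusted p = 0.0633). Pax5 at 2.40 (SE 1.01, adjusted p = 0.118), Ms4a1 at 2.38 (SE 1.08, adjusted p = 0.147) and Bank1 at 2.04 (SE 0.84, adjusted p = 0.112) did not pass. The median log2 fold change was 2.61 over the members and 0.05 over all genes tested.

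The calls rested on wide errors: the members' SE in this comparison was 0.81 to 1.25, against a median of 0.31 over all genes. The groups did not overlap for 1 of the 9 members (Cd79b), and for 28.3% of all genes. Without flox MTX replicate 2, the library with the highest levels, 1 member was called and the members' log2 fold changes were 1.04 to 2.94. Without flox vehicle replicate 3, which had the lowest level of the 12 libraries for 7 members and the highest sum of epididymis markers (11050 CPM), none was called by edgeR, with log2 fold changes of 1.79 to 3.20, adjusted p of 0.153 to 0.363 and 3 members at an unadjusted p below 0.05. Without flox vehicle replicate 1 or 4, 5 and 4 members were called. The shares of all genes called in these refits are not given here, so the members' losses cannot be set against them. DESeq2 on all 12 libraries called 9 of the members. Counting both directions, it called 4818 genes (25.8% of all genes), where edgeR called 4528. Because epididymis RNA set the flox vehicle libraries apart, it moved with this comparison, and its part in the result was not tested.

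**Figure D2:**
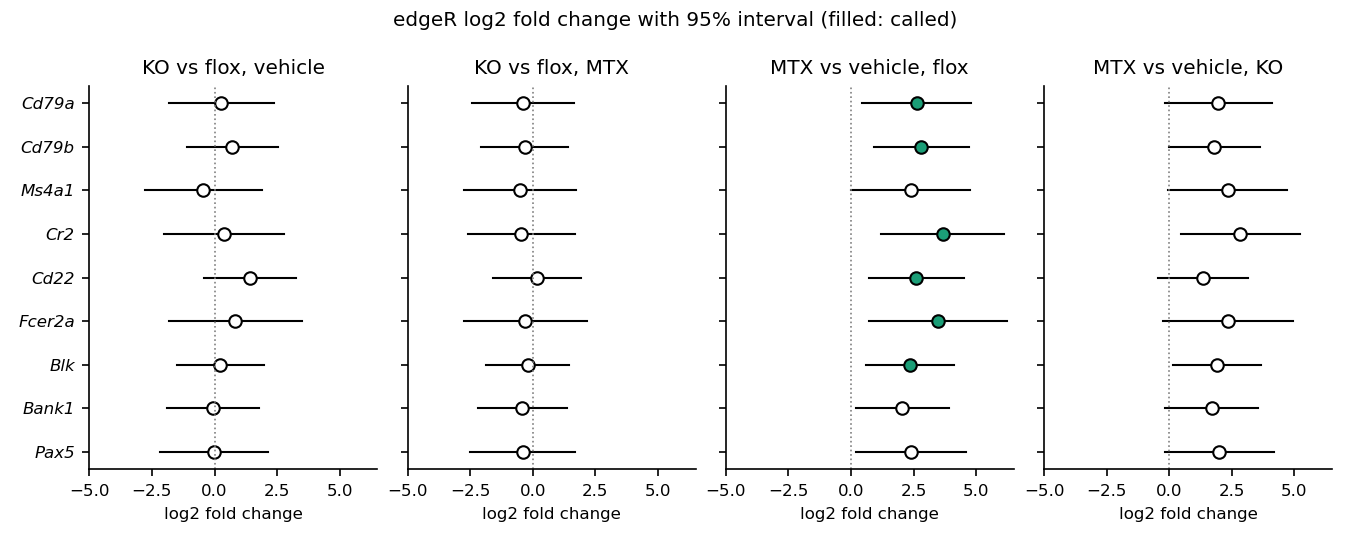
Log2 fold change (point) with its 95% interval (line) of each of the 9 genes in 4 comparisons of the edgeR fit over 12 libraries, with filled points for genes called. The 6 filled points lie in the comparison of MTX with vehicle in flox mice, and the intervals of every gene include 0 in both comparisons of KO with flox.

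In KO mice, 0 of the 9 members were called for MTX against vehicle by edgeR, as was 0.0% of all genes, and 2 members (Cr2 and Blk) had an unadjusted p below 0.05. DESeq2 called 0 members as well, and 1.5% of all genes. It put 8 of the 9 members at an unadjusted p below 0.05, as edgeR did without the filter on low counts. Without KO MTX replicate 3, edgeR put 0 members below that limit. In the main edgeR fit all 9 log2 fold changes were above 0, with a median of 1.96. They ran from 1.34 for Cd22 to 2.84 for Cr2 (SE 1.08, adjusted p = 0.512). No member's KO groups were free of overlap, where 20.7% of all genes were. The interaction of genotype and MTX was not called for any member by edgeR, at unadjusted p below 0.05 for 0 of 9, and DESeq2 called 0, where edgeR called 0.989% and DESeq2 6.67% of all genes. The members' interaction terms ran from -1.27 (95% interval -3.80 to 1.26) for Cd22 to -0.05 (-3.32 to 3.23) for Ms4a1, so an effect of MTX several fold smaller or larger in KO than in flox mice lay within the intervals.

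The effect of MTX averaged over both genotypes, a comparison added after the values had been seen, was called for 9 of 9 members, where 4.42% of all genes were called higher. In this fit Cr2 rose by 3.25 on the log2 scale (SE 0.78, adjusted p = 0.0272), Cd79b by 2.30 (SE 0.60, adjusted p = 0.0356) and Blk by 2.13 (SE 0.56, adjusted p = 0.0391), and the other 6 rose by 1.87 to 2.91 with adjusted p of 0.0553 to 0.0732. Fewer members were called without certain libraries: 2 without KO vehicle replicate 1, 3 without flox vehicle replicate 3 or KO MTX replicate 3, 4 without flox MTX replicate 2, 5 without KO vehicle replicate 2 or 3, and 6 without flox vehicle replicate 1. Without flox vehicle replicate 4 all 9 were called. All 9 fold changes were above 0 in each of these. Shares of all genes called in these refits are not given here either.

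Between the genotypes, 0 of 9 members were called under vehicle by edgeR, none had an unadjusted p below 0.05, and DESeq2 called 0, where edgeR called 31.7% and DESeq2 33.4% of all genes. The count remained 0 without each of the 3 flox vehicle libraries. Log2 fold changes of KO over flox ran from -0.46 for Ms4a1 (95% interval -2.80 to 1.89) to 1.43 for Cd22 (-0.41 to 3.26, adjusted p = 0.221), with a median of 0.27. Cd22 was the 1 member whose groups did not overlap, as 48.1% of all genes did not. Fitted to the 6 vehicle libraries alone, Cd22 was called (log2 fold change 1.43, adjusted p = 0.0584) and the other members were not. That refit called about as many of all genes as the fit of all libraries, where 31.7% were called. A call in it was therefore common and not particular to Cd22. Under MTX, 0 members were called by edgeR, none had an unadjusted p below 0.05, and DESeq2 called 0, where edgeR called 0.0% and DESeq2 14.8% of all genes. Without flox MTX replicate 2, edgeR called 20.8% of all genes and 0 members. In the fit of all libraries, the members' log2 fold changes under MTX ran from -0.50 for Ms4a1 to 0.16 for Cd22. Their sign rested on single libraries, however. All 9 were positive without flox MTX replicate 2 (0.27 to 1.42) or KO MTX replicate 2 (0.03 to 0.52), and all 9 negative without KO MTX replicate 3 (-1.83 to -0.72), flox MTX replicate 1 or flox MTX replicate 4. The 95% intervals span several-fold differences in both directions, and the comparison under vehicle shares its 3 flox libraries with that of MTX in flox mice.

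Ratios of counts within a library are free of the scaling between libraries, and that of Cd22 differed between the genotypes. The ratio of Cd22 to Cd79a was 1.13, 0.747 and 0.811 in flox vehicle and 0.770, 0.960 and 0.881 in flox MTX, against 3.45, 1.40 and 3.02 in KO vehicle and 3.58, 1.19 and 1.39 in KO MTX. All 6 KO libraries thus lay above all 6 flox libraries, with the highest ratios in the KO libraries that held the least Cd79a. Permuting genotype within each treatment, this difference (1.27 on the log2 scale) had an exact two-sided permutation p of 0.005, the smallest that the design allows, and an adjusted p of 0.04 over the 8 ratios to Cd79a. The other 7 ratios had adjusted p of 0.453 to 0.930. With the geometric mean of the other 8 members as the denominator, Cd22 was 1.13 higher in KO mice on the log2 scale (adjusted p = 0.045 over 9 ratios, exact permutation test), whereas Ms4a1 was at -0.71 and Pax5 at -0.32 (both adjusted p = 0.09, exact permutation test). The denominators of Ms4a1 and Pax5 include Cd22. The ratios were examined after the levels had been seen, and leaving out any 1 of the flox libraries raised the exact permutation test's adjusted p for Cd22 to 0.08 or 0.12, with differences of 1.21 to 1.36. Macrophage markers were also mostly higher in KO libraries, and flox MTX replicate 2 lay within the KO range. The sum over 13 macrophage markers was 5068 to 10580 CPM in KO libraries and 655 to 5767 CPM in flox libraries. These sums are levels and not ratios to Cd79a, so the 2 scales differ. The part of macrophages in the ratio was not tested.

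**Figure D3:**
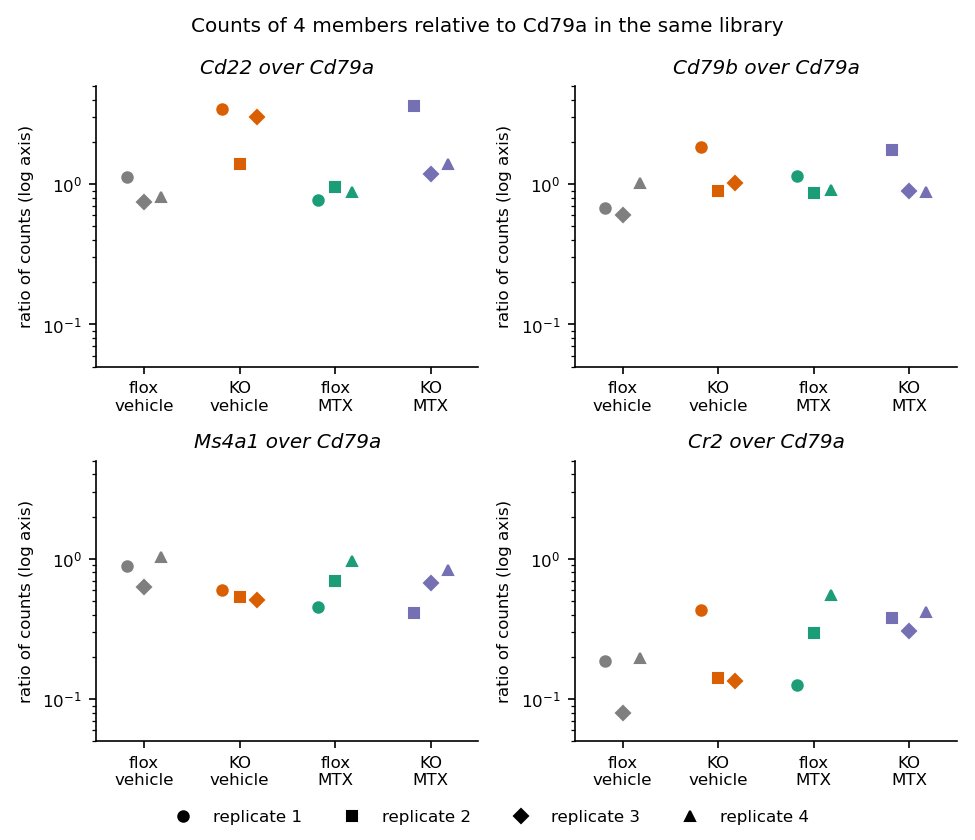
Counts of Cd22, Cd79b, Ms4a1 and Cr2 divided by those of Cd79a in the same library, on a log axis with 1 point per library and the replicate number as its shape. The 6 KO libraries lie at 1.19 to 3.58 for Cd22 and the 6 flox libraries at 0.747 to 1.13, whereas the genotypes overlap in the other 3 panels.

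Cr2 also varied in its share within the B cell genes. Relative to Cd79a it stood at 0.187, 0.0800 and 0.197 in flox vehicle, 0.434, 0.141 and 0.135 in KO vehicle, 0.127, 0.298 and 0.549 in flox MTX and 0.379, 0.305 and 0.417 in KO MTX. The 4 MTX libraries with high B cell levels held 0.298 to 0.549, and among the other 8 only KO vehicle replicate 1 and KO MTX replicate 2, with 53 and 95 counts of Cd79a, came to such values. Fcer2a over Cd79a was 0.431 to 0.586 in those 4 libraries and 0.123 to 0.419 in the other 8, so the 4 libraries lay above all others for Fcer2a, by a small margin, and overlapped with them for Cr2. Since these 4 libraries were picked by their levels, the values are given without a test.

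Of 6 constant-region genes of the receptor's own immunoglobulin chains, 5 were called higher and none lower for MTX in flox mice. The median log2 fold change of the 6 was 3.34, and 8.09% of all genes tested were called higher. Igkc, the kappa light chain, stood at 253, 21.5 and 107.7 CPM in flox vehicle and 234, 3407 and 699 CPM in flox MTX (log2 fold change 3.51, SE 1.04, adjusted p = 0.0378), and at 79.7, 104, 73.3 and 207, 583, 163 CPM in the KO groups. Ighd, whose IgD marks mature naive B cells, stood at 4.17, 3.97 and 6.65 CPM in flox vehicle and 8.60, 89.2 and 34.9 CPM in flox MTX (3.17, SE 0.94, adjusted p = 0.0385). Iglc1 (4.22, adjusted p = 0.0415) and Iglc2 (3.70, adjusted p = 0.0754), lambda chains of a family whose similar members may share reads, rose too, as did Iglc3, which is named after its values were seen. Ighd stood at 5.13, 71.7 and 20.9 CPM in KO MTX, so its highest libraries were those highest for the members. By Iglc1 the libraries were ordered otherwise. Iglc1 stood at 6.57, 193.9 and 9.004 CPM in flox MTX and at 32.02, 28.2 and 7.17 CPM in KO MTX. KO MTX replicate 2, at vehicle level for the members, was thus second highest for Iglc1. Ighm, the IgM heavy chain, did not pass: it stood at 564 to 1240 CPM in flox vehicle and 1122 to 1709 CPM in flox MTX (0.73, SE 0.39, adjusted p = 0.216), already high where the 9 members were low. Genes of the immunoglobulin loci are also expressed by plasma cells.

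Among 20 further surface and coreceptor genes, 12 were called higher and 1 lower for MTX in flox mice, with a median log2 fold change of 1.93. The share of all genes called higher there was 8.09%. Ccr6, the receptor for the chemokine CCL20, rose by 3.61 on the log2 scale (adjusted p = 0.0482), Fcmr, the IgM receptor, by 3.12 (adjusted p = 0.0915), the inhibitory receptor Btla by 2.96 (adjusted p = 0.0436) and Fcrl1, a receptor of the Fc receptor-like family on B cells, by 2.25 (adjusted p = 0.0964). Of the same 20 genes, 5 were called higher and 1 lower in KO than in flox mice under vehicle, a share close to the 31.7% of all genes called there, among them Cd37, a tetraspanin also found on other leukocytes (2.22, adjusted p = 0.00733). The gene called lower in both comparisons, named after its values were seen, was Cd24a, which epithelia also express.

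Of 20 kinases, adaptors and phosphatases below the receptor, 9 were called higher for MTX in flox mice. For KO over flox under vehicle, 16 were called higher, and none was called lower in either comparison. Of all genes tested, 8.09% were called higher in the first comparison and 31.7% were called in either direction in the second. None of the 20 was called by edgeR for MTX in KO mice or for KO over flox under MTX, where no gene at all was called. Syk, the kinase that docks on the CD79 chains, stood at 23.8 to 44.9 CPM in flox vehicle, 132 to 212 CPM in KO vehicle, 45.3 to 183 CPM in flox MTX and 201 to 322 CPM in KO MTX (KO over flox under vehicle 2.29, adjusted p = 0.00484). Vav1 (2.52, adjusted p = 0.00581) and the phosphatase Inpp5d (2.42, adjusted p = 0.00335) were higher in KO mice under vehicle likewise. These proteins also serve myeloid cells, and 13 of 13 macrophage markers were called higher in the same comparison, with a median log2 fold change of 2.77. The part of macrophages in the calls of these 20 genes was not tested.

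Of 15 further transcription factors of the B lineage, 14 were tested (Rag1 was not), with a median log2 fold change of 0.88 for MTX in flox mice. Against 8.09% of all genes, 5 of the 14 were called higher there. These included Ikzf3, the lymphoid factor Aiolos (2.27, adjusted p = 0.0724), the octamer factor Pou2f2 (1.46, adjusted p = 0.0913), Bach2 (1.41, adjusted p = 0.0857) and Spi1 (1.63, adjusted p = 0.0567), and the fifth was Irf8, named after its values were seen. Spi1 codes for PU.1, which macrophages also need, and was called higher in KO mice under vehicle (3.09, adjusted p = 0.00413). Ebf1, which acts beside Pax5 in B cells and is also expressed in adipocytes, stood at 81.1 to 211 CPM over the 12 libraries and did not pass for MTX in flox mice (0.41, adjusted p = 0.335).

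Ligands that attract B cells or keep them alive were counted as a separate group. Here 2 of 8 tested genes were called higher for MTX in flox mice, against 8.09% of all genes. Cxcl13, the chemokine that draws B cells into follicles, stood at 12.5, 0.747 and 2.72 CPM in flox vehicle, 2.57, 6.10 and 2.62 CPM in KO vehicle, 10.8, 94.2 and 74.7 CPM in flox MTX and 8.35, 68.2 and 25.1 CPM in KO MTX. Its highest 4 libraries were those that were highest for the members. It rose with MTX in flox mice (log2 fold change 3.49, SE 1.08, adjusted p = 0.0451) and averaged over both genotypes (3.33, SE 0.76, adjusted p = 0.0240). Tnfsf13b, which codes for the survival factor BAFF, stood at 1.57 to 2.99 CPM in flox vehicle and 3.06 to 10.5 CPM in flox MTX (1.40, adjusted p = 0.0351). It stood at 6.40 to 7.12 CPM in KO vehicle and 5.48 to 8.15 CPM in KO MTX. Under vehicle it was called higher in KO than in flox mice (1.48, adjusted p = 0.0189). In that comparison 3 of the 8 ligands were called higher, a share close to the 31.7% of all genes called there. Over all these lists, 21 of the genes selected for naming were called for MTX in flox mice. Without flox vehicle replicate 3, 2 of the 21 were still called, and without flox MTX replicate 2, 7 were, with all 21 fold changes above 0 in both. Without flox vehicle replicate 1 or 4, 13 and 15 were called. These losses, too, are given without the shares of all genes called in the same refits.

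**Figure D4:**
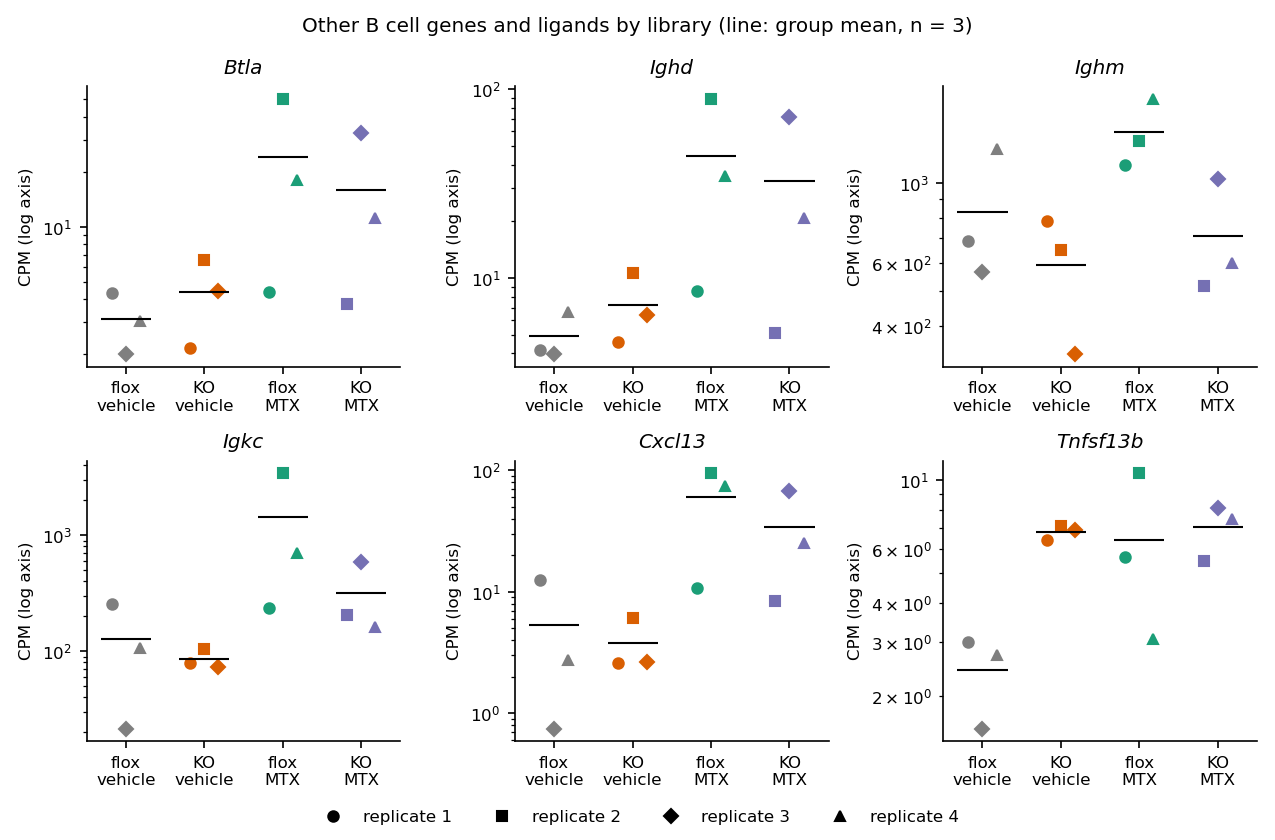
Levels in CPM on log axes of the receptor gene Btla, the immunoglobulin genes Ighd, Ighm and Igkc, and the ligands Cxcl13 and Tnfsf13b, with 1 point per library, its shape giving the replicate number, and the line the mean of 3 libraries. Btla, Ighd and Cxcl13 have the same 4 highest libraries as the 9 genes, with flox MTX replicate 2 highest, whereas Ighm lies between 334 and 1709 CPM in all 12 libraries.

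The genes whose pattern over the 12 libraries was most like the mean of the members (Pearson's r of log2 CPM, all genes tested) were H2-Ob (0.992), Ikzf3 (0.987), Ffar1 (0.987), Btla (0.986), H2-Oa (0.985), H2-Eb2 (0.984), Slamf6 (0.982) and Tnfrsf13c (0.981). H2-Oa and H2-Ob code for the chains of the MHC class II chaperone known as DO in B cells, and Tnfrsf13c for the BAFF receptor. H2-Ob ranged from 2.28 to 53.3 CPM and Tnfrsf13c from 0.629 to 13.9 CPM, both highest in flox MTX replicate 2. Ffar1, a fatty acid receptor, lies 3837 bases from Cd22 on the same strand and ranged from 0.0787 to 7.23 CPM.

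Markers of other immune cells moved with the members in part. For MTX in flox mice, 6 of 12 T cell markers, 6 of 10 plasma cell markers and 13 of 13 macrophage markers were called higher. Over all genes tested, 8.09% were called higher. The T cell sum was 20.1 to 30.4 CPM in flox vehicle, 31.9 to 50.9 CPM in KO vehicle, 37.3 to 129 CPM in flox MTX and 51.0 to 106 CPM in KO MTX, with no marker at 0 in any library. Flox MTX replicate 2 and KO MTX replicate 3 were highest for T cell markers too, whereas flox MTX replicate 4, next highest for the members, held 43.3 CPM of T cell markers, above the flox vehicle libraries, and 1050 CPM of macrophage markers, within their range. Divided by the T cell sum, the members' sum was 2.93, 3.01 and 3.46 in flox MTX replicate 2, KO MTX replicate 3 and flox MTX replicate 4 and 0.704 to 1.68 in the other 9 libraries. The part of T cells, plasma cells and macrophages in the results on the 9 genes was not tested.

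**Figure D5:**
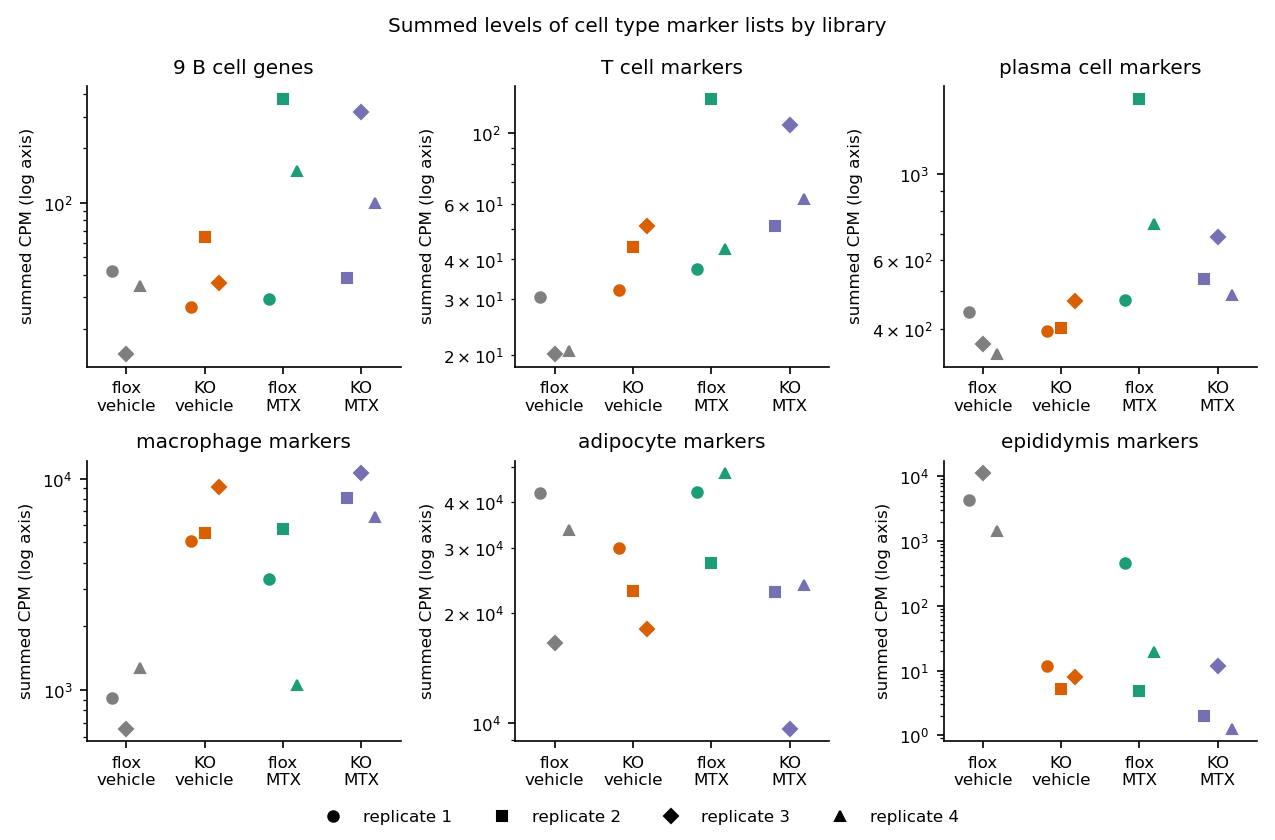
Summed CPM of the 9 B cell genes and of marker lists of T cells, plasma cells, macrophages, adipocytes and epididymis, on log axes with 1 point per library and the replicate number as its shape. The 9 genes, T cell and plasma cell markers peak in flox MTX replicate 2 (square), macrophage markers split the genotypes under vehicle (655 to 1270 CPM in flox and 5068 to 9102 CPM in KO), and epididymis markers are high in the 3 flox vehicle libraries.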

How the data were processed

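The deposited values are whole read counts per Ensembl gene with no normalization. According to the labels and methods, the authors trimmed reads with Trimmomatic 0.36, aligned them to GRCm38 (mm10) with STAR 2.5.2b and counted them with featureCounts of Subread 1.5.2. The strand setting was not given in the sources used here, and labels and methods differ on whether polyA RNA was selected or ribosomal RNA removed. Each library was taken as 1 mouse, although the labels name no animal. The p-values of the fits judge group differences against the spread between these libraries.

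Symbols, positions and exon lengths came from GENCODE M21 (GRCm38). In R 4.3.3, edgeR 4.0.16 was run with TMM factors, filterByExpr by group and glmQLFit with 1 coefficient per group over all 12 libraries. glmQLFTest p-values were adjusted by Benjamini-Hochberg over 18702 genes. DESeq2 1.42.0 was an alternative, beside other scalings, filters and limits, the replicate block and each library left out. CPM used TMM-scaled library sizes. An exact permutation test of 3 against 3 libraries cannot go below 0.1. Intervals and the limit of 3 counts cover, respectively, the fit and counting error only. Correlations used log2 CPM with a prior count of 2. The fit was tested on simulated counts. The members and lists were chosen with earlier results of these data known. The named genes were the members and, per list, up to 4 called genes with the largest change in a comparison with a called member and the most abundant genes, of which some are not reported here. Some receptor genes of the lists are also expressed by other leukocytes.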

Additional observations from a re-analysis of the deposited data

How the results depend on the processing

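For MTX against vehicle in flox mice, 6 members passed. Requiring at least 10 counts in every library (Cr2 then not tested) left 3, the 6 libraries alone left 1, an adjusted p limit of 0.05 left 2, and leaving out each library gave 0 to 9. Averaged over both genotypes, 9 passed, 3 with the limit of 0.05 and 2 to 9 with each library left out. Shares of all genes called under these settings are not given here. The replicate block gave 0 in both comparisons by edgeR, with 1 and 6 members at an unadjusted p below 0.05. Same-numbered libraries showed little shared deviation (median residual correlation 0.035 over 12 pairs, -0.27 to 0.25, against 0.011 over 42 other pairs), so the numbers were not taken to pair the mice. The count of 0 between genotypes under vehicle became 1 (Cd22) with the 6 libraries alone, where about as many of all genes were called as in the main fit. This count and the other counts of 0 stayed 0 when each library was left out.

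Every member's fold change with MTX stayed above 0 in both genotypes under all these settings. Those between genotypes and the interaction turned for some members. Under the replicate block, KO over flox under vehicle was -0.47 for Cd79a and -0.16 for Blk on the log2 scale, and the interaction 0.58 for Ms4a1, 0.078 for Cd79a and 0.12 for Pax5. With library size as the only scaling, the interaction was 0.064 for Ms4a1, KO over flox under vehicle was 0.0051 for Pax5 (0.014 without a filter), and MTX averaged over genotypes gave -0.0080 for Cd81 and -0.032 for Ebf1 (-0.024 with the block). Over the other 8 members in place of Cd79a, the log2 ratio of Blk was -0.044 and that of Cd22 1.13 (exact permutation test, adjusted p = 0.045 over 9 ratios). Ms4a1 was then at -0.71 and Pax5 at -0.32 (exact permutation test, p = 0.03 and 0.025, both adjusted p = 0.09). Leaving out each library, KO over flox under vehicle was -0.46 to 0.67 for Cd79a, -0.10 to 0.79 for Cr2, -0.23 to 1.78 for Fcer2a, -0.57 to 0.27 for Pax5, -0.18 to 0.61 for Blk and -0.54 to 0.18 for Bank1. Under MTX it was -1.72 to 0.44 for Ms4a1, -1.71 to 0.75 for Cd79a, -1.47 to 0.72 for Cd79b, -1.48 to 0.27 for Cr2, -1.83 to 0.69 for Fcer2a, -1.78 to 0.70 for Pax5, -1.13 to 0.73 for Blk, -0.72 to 1.42 for Cd22 and -1.55 to 0.60 for Bank1. The interaction was -1.27 to 0.88 for Ms4a1, -1.99 to 0.47 for Cd79a, -2.18 to 0.011 for Cd79b, -1.77 to 0.71 for Pax5, -1.37 to 0.48 for Blk and -1.51 to 0.65 for Bank1. MTX averaged over genotypes was -0.041 to 0.22 for Ebf1, and the log2 ratios to Cd79a, KO over flox, were -0.13 to 0.059 for Pax5 and -0.17 to 0.054 for Bank1. The cause was not tested in any of these. With 3 libraries a group, log2 fold changes as large as 2.84 (Cr2 with MTX in KO mice) were not called.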
